A study of Homo sapiens with 3 samples.

Results

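The genes described here encode the TOM1 family and proteins that work beside it in endosomal sorting: *TOM1*, *TOM1L1* and *TOM1L2*, the *TOM1* partner *TOLLIP*, the ESCRT-0 subunits *HGS*, *STAM* and *STAM2*, the ESCRT-I subunit *TSG101*, and the adaptors *GGA1* and *GGA2*. They were taken by gene symbol from a deposited expression table, and all 10 were found among its 23131 rows. The RNA came from HCT-116, a human colon carcinoma line whose labels give *APC* as wild-type and β-catenin as CTNNB1ΔSer45, a form that resists degradation; every library of the study shares these alleles. Cells given pooled anti-APC siRNA were compared with cells titled untransfected, which the treatment label describes as given transfection reagent only (mock). The comparison asks which transcripts differ when *APC* is reduced. Transfections were made on consecutive days and cells were harvested 48 h after the second. A library from cells given a pool of scrambled siRNA belongs to the series and was not analysed here, so from the 2 libraries compared the effects of silencing *APC* and of carrying any siRNA cannot be told apart. Each condition had 1 library, so no difference below has a replicate check and no p-value was computed.

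Membrane proteins tagged with ubiquitin are gathered on endosomes and passed into vesicles bound for the lysosome. The ESCRT complexes do this in sequence, with ESCRT-0 binding ubiquitin and ESCRT-I acting next. TOM1 family, *STAM*, *HGS* and GGA proteins all begin with a VHS domain. TOM1 family and GGA proteins also hold a GAT domain, and both bind ubiquitin and clathrin. GGA proteins are best known for carrying cargo from the trans-Golgi network to endosomes. *TOM1L2* was among the genes that the study followed up. It chose them in part on expression in anti-APC against scrambled siRNA cells, and also on APC ChIP and mouse colon adenomas. The anti-APC library thus entered that choice, so the difference of *TOM1L2* here is not independent evidence.

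The promoters of the 3 TOM1 family genes are printed because these paralogs differed in level and in how far the libraries stood apart. RefSeq windows (build GRCh38.p14) of 250 bases before and 50 bases after the transcript start were found for 9 of the 10 genes, in 12 windows. *GGA2* had none in the table used. The windows printed are chr17:17972351-17972650 (minus strand) for *TOM1L2*, chr22:35299644-35299943 (plus strand), 1 of 2 windows for *TOM1*, and chr17:54900602-54900901 (plus strand) for *TOM1L1*. They read 5′ to 3′, and capitals mark GC boxes (GGGCGG) and CCAAT boxes (CCAAT) on either strand.
TOM1L2 promoter: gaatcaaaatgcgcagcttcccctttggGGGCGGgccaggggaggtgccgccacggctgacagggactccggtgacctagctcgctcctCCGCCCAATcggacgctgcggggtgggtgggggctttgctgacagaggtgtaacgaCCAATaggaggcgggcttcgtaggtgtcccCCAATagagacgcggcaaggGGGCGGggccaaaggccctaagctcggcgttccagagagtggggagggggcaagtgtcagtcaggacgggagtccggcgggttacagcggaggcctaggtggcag
TOM1 promoter: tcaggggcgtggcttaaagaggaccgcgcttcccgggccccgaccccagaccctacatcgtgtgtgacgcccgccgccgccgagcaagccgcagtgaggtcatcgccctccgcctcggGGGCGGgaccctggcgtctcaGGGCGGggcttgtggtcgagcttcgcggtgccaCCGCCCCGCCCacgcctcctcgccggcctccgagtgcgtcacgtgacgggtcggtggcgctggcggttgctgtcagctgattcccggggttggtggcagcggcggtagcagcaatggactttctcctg
TOM1L1 promoter: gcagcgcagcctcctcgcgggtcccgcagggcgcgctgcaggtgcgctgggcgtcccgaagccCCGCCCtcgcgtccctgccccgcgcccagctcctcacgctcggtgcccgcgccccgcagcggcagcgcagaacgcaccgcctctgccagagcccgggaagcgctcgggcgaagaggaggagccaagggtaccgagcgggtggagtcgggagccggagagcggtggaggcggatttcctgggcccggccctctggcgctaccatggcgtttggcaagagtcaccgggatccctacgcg
The *TOM1L2* window held 3 GC boxes and 3 CCAAT boxes, and 1 of each overlapped. The *TOM1* window printed held 4 GC boxes, of which a pair overlapped, and the *TOM1L1* window 1. No CCAAT box was in either. The *TOM1* window that is not printed held no GC box and no CCAAT box. Of all 35116 promoter windows of this length, 45.0% held at least 1 GC box, 26.7% at least 2, and 3.26% at least 3 CCAAT boxes. Among the rest of the 12 windows of the genes described here, only that of *HGS* held 3 CCAAT boxes. Motifs of AP-1 (TGACTCA or TGAGTCA) and TCF7L2 (AACAAAG or ATCAAAG or TACAAAG or TTCAAAG) were also searched on both strands. Neither was in the 3 windows printed. The study searched for these factors' motifs in genomic regions associated with APC. Those regions were not searched here, so an absence from these windows says nothing of them. AP-1 motifs were in 4.95% of all windows and in none of the 12, and TCF7L2 motifs in 13.8% of all windows and in 1 of the 12, the second *TOLLIP* window. These matches describe letters in a short window and say nothing of what binds there.

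Levels are in FPKM, the reads assigned to a transcript per kilobase of its length, scaled for the size of the library. Each read of these single-read libraries is 1 fragment. If the scale is the read total, steps between low values gave an estimated depth of 23.2 M reads for the anti-APC library. For the untransfected library it was 25.4 M. *APC*, the target of the siRNA, was at 9.15 FPKM in untransfected and 3.43 FPKM in anti-APC cells, which left 0.375 of its level. *AXIN2*, a target of WNT signalling, was at 4.11 and 28.7 FPKM, a log2 ratio of 2.81. The 6 epithelial markers *EPCAM*, *CDH1*, *KRT8*, *KRT18*, *KRT19* and *CLDN7* were all present, from 19.0 to 588 FPKM in untransfected cells and from 12.1 to 478 FPKM in anti-APC cells. All 6 were lower in the anti-APC library, with a sum of 1338 against 1712 FPKM. Most of both sums came from *KRT8*, *KRT18* and *KRT19*. Only *CDH1*, at 19.0 FPKM in untransfected and 12.1 FPKM in anti-APC cells, was at least 1.5-fold lower. Of all rows with a mean of at least 1 FPKM and both values above 0, 6.61% were as well. Of 6 markers of blood, endothelial and stromal cells, *COL1A1* was at 2.85 and 3.08 FPKM in untransfected and anti-APC cells and the other 5 were at or near 0 in both.

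All 10 genes were expressed in both libraries. Their levels in untransfected cells ran from 4.18 FPKM for *TOM1L2* to 88.3 FPKM for *HGS*, a 21.1-fold range, and in anti-APC cells from 2.18 to 75.1 FPKM between the same genes, a 34.4-fold range. *HGS*, *TSG101* and *TOM1L1* led the order in both libraries and *TOM1L2* was last in both. *GGA2*, *GGA1* and *STAM* lay close together in untransfected cells, where neighbours were 1.05-fold and 1.07-fold apart, and *STAM* stood above *GGA1* in anti-APC cells. *STAM2*, *TOM1* and *TOLLIP* were likewise 1.12-fold and 1.06-fold apart in untransfected cells. With 1 library per condition the order within these close groups is not established.

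**Figure D1:**
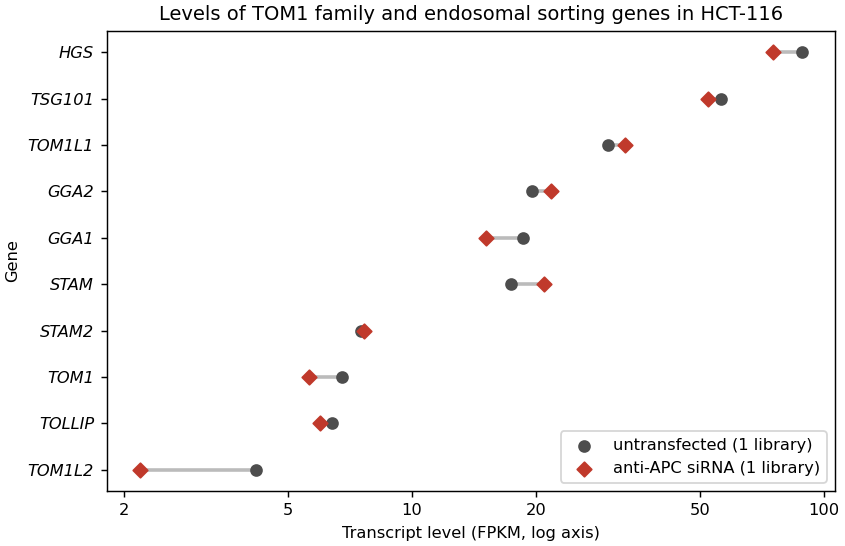
Transcript level of each of the 10 genes (FPKM, log axis) in the untransfected library (grey circles) and the anti-APC siRNA library (red diamonds), 1 library each, joined by a line. *TOM1L2* has the lowest level in both libraries and the longest line, from 4.18 to 2.18 FPKM.

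*TOM1L2* was the only 1 of the 10 genes to differ by at least 1.5-fold, the threshold used below. It was at 4.18 FPKM in untransfected cells and at 2.18 FPKM in anti-APC cells, 1.92-fold lower. In bulk RNA, fewer cells with *TOM1L2* RNA and less of it per cell cannot be told apart. No gene was at least 1.5-fold higher. Across the 12063 rows with a mean of at least 1 FPKM and both values above 0, 6.61% were at least 1.5-fold lower and 2.56% at least 1.5-fold higher, so 1 lower gene of 10 is near the background. Of the 10 log2 ratios of anti-APC over untransfected, 6 were below 0 and 4 above. Their median was -0.10, beside a median of -0.05 and quartiles of -0.24 and 0.11 over all 12063 rows. Of all these rows, 62.0% were at or below 0.02, the ratio of *STAM2*, so 6 of 10 below 0 is near the background. The 9 genes other than *TOM1L2* lay within 1.23-fold, from -0.30 for *GGA1* to 0.27 for *STAM*.

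**Figure D2:**
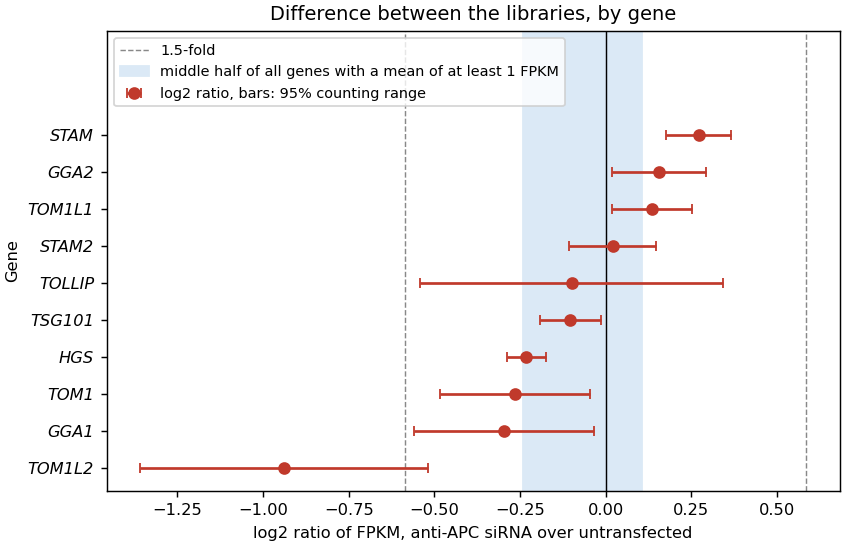
log2 ratio of FPKM in the anti-APC siRNA library over the untransfected library for each gene (points), with the 95% counting range (bars; shortest complete coding transcript), lines at 1.5-fold and a band from the lower to the upper quartile of the 12063 rows with a mean of at least 1 FPKM. *TOM1L2* at -0.94 is the only point past 1.5-fold, and the ranges of *TOLLIP* and *STAM2* cover 0.

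*TOM1L2* encodes a *TOM1* paralog that binds ubiquitin and clathrin. On GRCh37 the gene lies on the minus strand of chromosome 17, from 17746825 to 17875736, and GENCODE gives it 14 transcripts. Its level of 4.18 FPKM in untransfected cells was higher than that of only 19.4% of the rows above. Its log2 ratio was -0.94. The estimated depth and the shortest complete coding transcript (1320 bases) put this value on about 140 reads in untransfected and 67 in anti-APC cells, with a 95% counting interval from -1.36 to -0.52. With the canonical transcript of 5735 bases these become 609 and 290 reads and the interval ±0.20. Both intervals lie below 0, the wider one reaches inside the 1.5-fold limit, and they cover counting error only. Differences of this size were more frequent among low rows. Of the 2862 rows with a mean of 1 to 5 FPKM, 15.7% were at least 1.5-fold lower and 4.02% were as low as *TOM1L2*, against 1.72% (207 rows) of all rows tested. The lower sum of the epithelial markers moved the same way as *TOM1L2*, and its part in the result was not tested.

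**Figure D3:**
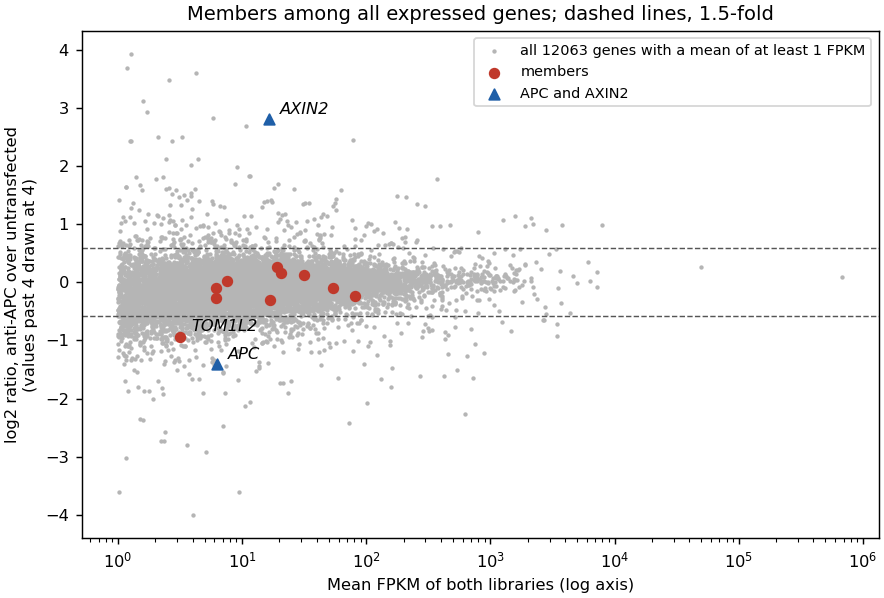
log2 ratio of the anti-APC siRNA library over the untransfected library (y axis, values past 4 drawn at 4) against the mean FPKM of both (x axis, log scale) for 12063 rows (grey), the 10 genes (red circles), and *APC* and *AXIN2* (blue triangles), with dashed lines at 1.5-fold. *TOM1L2* is the only red point outside the dashed lines, at a mean of 3.18 FPKM, where the grey points spread widely.

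The rows nearest to *TOM1L2* in both log2 FPKM values, of 16288 rows above 0 in both libraries, were *MGLL*, *TSPAN18* and *RNF215*. *MGLL*, a monoacylglycerol lipase, was at 4.26 FPKM in untransfected and 2.17 in anti-APC cells. *TSPAN18*, a tetraspanin, was at 4.03 and 2.19 FPKM. *RNF215*, a RING finger protein, was at 4.03 and 2.22 FPKM. With 2 libraries this likeness means only that both levels were close.

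*TOM1* and *TOM1L1* differed by less than 1.5-fold between the libraries. *TOM1*, the founding member, was at 6.75 FPKM in untransfected and 5.61 FPKM in anti-APC cells, a log2 ratio of -0.27 (counting interval -0.48 to -0.046). Its locus, chromosome 22 from 35695268 to 35743985 on GRCh37 (plus strand), also holds *MIR3909*, which is listed at 0 in both libraries. *TOM1L1*, which also binds SRC family kinases, was the most abundant paralog, at 30.0 FPKM in untransfected and 32.9 FPKM in anti-APC cells (log2 ratio 0.13, 0.017 to 0.25). *TOM1L1* (chromosome 17, from 52976748 to 53039317, plus strand) overlaps *COX11*, which encodes a cytochrome c oxidase assembly factor on the opposite strand. Of the 36-base stretches of its canonical transcript, 33.6% also occur in *COX11* transcripts, so part of its reads could belong to *COX11* unless strand was used, which is not given in the sources used here. *COX11* was at 52.2 and 51.1 FPKM (log2 ratio -0.03). *TOM1* and *TOM1L2* shared no 36-base stretch with any other annotated gene.

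The 3 levels of the TOM1 family added to 40.9 FPKM in untransfected and 40.7 FPKM in anti-APC cells. The log2 ratio of these sums was -0.01, and it was above 0 (0.05 and 0.02) once the libraries were rescaled by the median ratio or the 75th percentile. The make-up of this sum differed between libraries. *TOM1L2* was 10.2% of it in untransfected and 5.36% in anti-APC cells, *TOM1* 16.5% and 13.8%, and *TOM1L1* 73.3% and 80.8%. There was 1.61 times as much *TOM1* as *TOM1L2* in untransfected and 2.57 times as much in anti-APC cells. For *TOM1L1* these ratios were 7.16 and 15.1. Without *TOM1L1*, whose reads may be shared, the sum of *TOM1* and *TOM1L2* was 10.9 FPKM in untransfected and 7.80 FPKM in anti-APC cells (log2 ratio -0.49). *TOLLIP* (chromosome 11, from 1295601 to 1330884, minus strand), an adaptor that binds *TOM1* and ubiquitin, was at 6.39 and 5.96 FPKM (log2 ratio -0.10, -0.54 to 0.34), and its interval covered 0.

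ESCRT-0 pairs *HGS*, which binds the endosomal lipid phosphatidylinositol 3-phosphate through its FYVE domain, with *STAM* or *STAM2*. On GRCh37, *HGS* lies on chromosome 17 from 79650356 to 79670168 (plus strand), *STAM* on chromosome 10 from 17686150 to 17758823 (plus strand) and *STAM2* on chromosome 2 from 152973315 to 153032277 (minus strand). *HGS* was the most abundant of the 10 genes, at 88.3 FPKM in untransfected and 75.1 FPKM in anti-APC cells (log2 ratio -0.23, counting interval -0.29 to -0.18). *STAM* was at 17.4 and 20.9 FPKM, the highest ratio of the 10 genes (0.27, 0.18 to 0.37). *STAM2* was at 7.54 and 7.64 FPKM (0.02, -0.11 to 0.15). *HGS* was lower and *STAM* higher in the anti-APC library by more than the counting interval, each by under 1.5-fold, and the interval of *STAM2* covered 0. There was 5.09 times as much *HGS* as *STAM* in untransfected and 3.59 times as much in anti-APC cells. The 3 levels added to 113 and 104 FPKM (log2 ratio -0.13). *HGS* shared 20.4% of its 36-base stretches with a long non-coding RNA gene on the opposite strand, and *STAM* and *STAM2* under 1% with any other gene. *TSG101* (chromosome 11, from 18489883 to 18548498, minus strand), the ESCRT-I subunit that *HGS* binds, was at 56.2 FPKM in untransfected and 52.3 FPKM in anti-APC cells (log2 ratio -0.10, -0.19 to -0.014). The intervals of *TSG101*, *TOM1* and *GGA1* covered 0 once the median ratio of all rows was subtracted.

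The GGA paralogs were expressed at similar levels and differed in sign. On GRCh37, *GGA1* lies on chromosome 22 from 38004732 to 38029571 (plus strand) and *GGA2* on chromosome 16 from 23474863 to 23533316 (minus strand). *GGA1* was at 18.6 FPKM in untransfected and 15.1 FPKM in anti-APC cells (log2 ratio -0.30, counting interval -0.56 to -0.034). *GGA2* was at 19.5 and 21.8 FPKM (0.16, 0.018 to 0.29), and 2.91% of its 36-base stretches occur in other genes. *GGA3*, the remaining paralog, added for comparison, was at 24.4 and 20.0 FPKM (-0.28, -0.40 to -0.17). Its locus held 3 rows, its own included, and shared 36-base stretches were not searched for it. Their sum was 62.5 FPKM in untransfected and 56.9 FPKM in anti-APC cells (log2 ratio -0.14). *GGA2* was 31.3% of it in untransfected and 38.2% in anti-APC cells, and *GGA3* 39.0% and 35.2%. Both the TOM1 family and the GGA family thus held paralogs with ratios below and above 0, and apart from *TOM1L2* none of them differed by 1.5-fold.

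**Figure D4:**
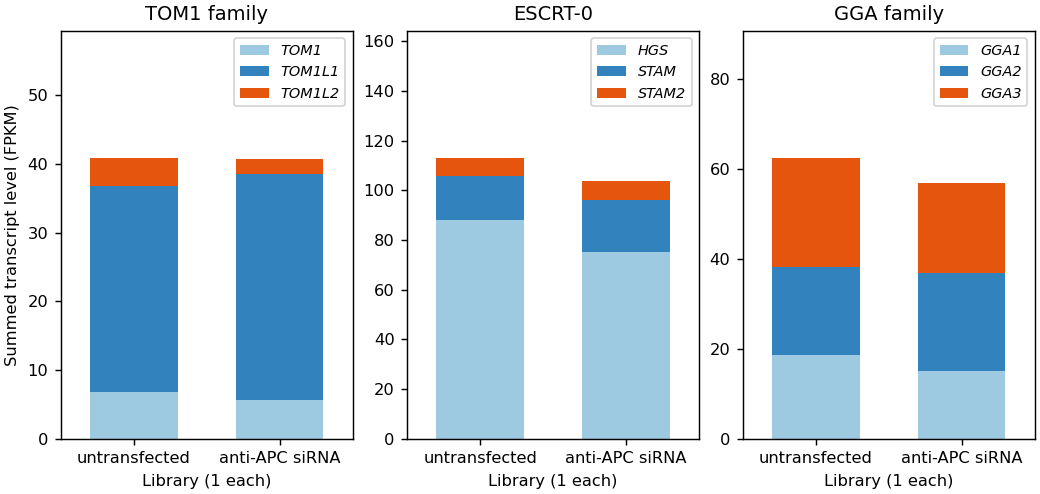
Stacked transcript levels (FPKM, axes from 0) of the TOM1 family, ESCRT-0 and the GGA family in the untransfected and the anti-APC siRNA library, 1 library each, with no error bar. The TOM1 family totals are 40.9 and 40.7 FPKM while the *TOM1L2* segment goes from 10.2% to 5.36% of the total.

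A further 63 genes of endosomal sorting were listed by role to set the 10 genes in their pathway. Of these, 61 were measured in both libraries, *CHMP1B* is listed at 0 with a failed status, and no row was found for *IST1*. Of the 61, 1 was at least 1.5-fold lower and 1 at least 1.5-fold higher. Their log2 ratios had a median of -0.02, with 34 below 0 and 27 above. This is near the division of all rows, whose median was -0.05. Of all rows tested, 6.61% were lower and 2.56% higher by this threshold, so 1 higher gene of 61 is near its background. The share lower is below 6.61%, but that background leans on low rows. Of rows with a mean of 1 to 5 FPKM, 15.7% were at least 1.5-fold lower, and few of the 61 genes have so low a mean. A background matched for level was not computed for these genes. *NEDD4*, a ubiquitin ligase of membrane proteins, was at 7.82 FPKM in untransfected and 4.92 FPKM in anti-APC cells (log2 ratio -0.67, 1.59-fold lower), and with 1 FPKM added to both values it no longer passed. *AP1S2*, a small subunit of the AP-1 clathrin adaptor that works with GGA proteins, was at 4.95 and 8.67 FPKM (0.81, 1.75-fold higher).

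By role, no measured ESCRT, clathrin or retromer gene differed by 1.5-fold. The 8 other ESCRT-I subunits ran from -0.51 to 0.23 on the log2 scale with a median of -0.13, and 6 of them were below 0. The 3 ESCRT-II subunits ran from -0.22 to 0.13 and the 14 measured ESCRT-III and VPS4 genes, which cut the vesicle neck and recycle the complex, from -0.46 to 0.22. The 3 endosomal deubiquitinases, which remove ubiquitin from cargo, stayed between -0.03 and 0.12. Clathrin genes lay between -0.19 and 0.14 and the 8 retromer genes, which return cargo to the Golgi, between -0.17 and 0.15. AP-1 genes other than *AP1S2* were within 1.24-fold. The *TOM1* partners *ZFYVE16*, an endosomal FYVE protein, and *MYO6*, an actin motor, were at 12.1 and 9.80 FPKM (-0.30) and at 22.1 and 23.9 FPKM (0.11). The 4 sorted receptors had a median of -0.24, with 3 below 0 and a range from -0.36 to 0.05. Both mannose 6-phosphate receptors that GGA proteins carry were nearest to 0, *M6PR* at 0.05 and *IGF2R* at -0.12. *SORT1* and *SORL1* were each at -0.36. The 7 ubiquitin ligases had a median of 0.04, with 5 above 0. These roles hold few genes each, and the median of all 12063 rows was -0.05.

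**Figure D5:**
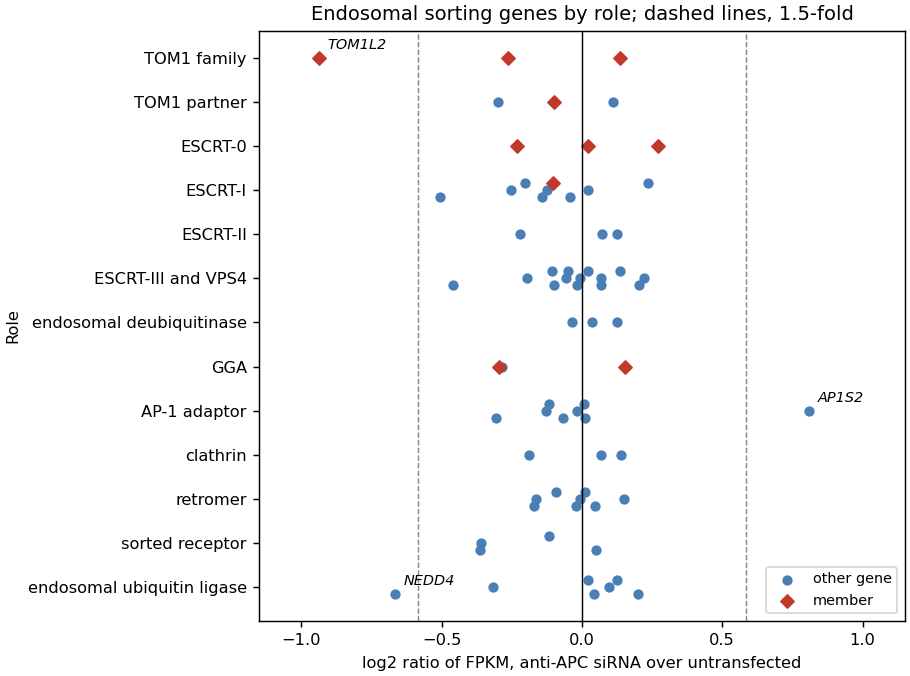
log2 ratio of FPKM, anti-APC siRNA over untransfected (x axis), for each measured endosomal sorting gene (points, spread vertically only for legibility) by role (y axis), with the 10 genes as red diamonds and dashed lines at 1.5-fold. *TOM1L2* and *NEDD4* lie past the lower line, *AP1S2* past the upper, and the other genes between them.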

How the data were processed

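RNA-seq of HCT-116 cells was available as 1 table with a value for the anti-APC siRNA and the untransfected library. The authors made single-read TruSeq libraries, and ran Cufflinks and Cuffdiff; the values they deposited are FPKM (named RPKM by the file). The submitters' processing notes name hg19. Tool versions, aligner, annotation, strand use and read length are not given in the sources used here, and the labels and the study's methods name different Illumina instruments. The table also holds the authors' log fold change, test statistic, p-value, q-value and significance columns, which were not used. It has 23131 rows, of which 269 with a failed status are listed at 0 in both libraries.

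log2 ratios of FPKM were taken without a pseudocount and a row was called at 1.5-fold, among rows with a mean of at least 1 FPKM. This left out 134 rows with such a mean and 1 library at 0. No test was possible with 1 library per condition. Depth was estimated from the steps of low FPKM values of 958 single-transcript genes of at least 2000 bases. The procedure was tested on simulated data made with the same transcript lengths, so errors in those lengths were not tested. Counting intervals (95%) took the shortest complete coding transcript of GENCODE 44 on GRCh37. They are estimates and cover counting error only. Stretches of 36 bases on either strand were compared between transcripts. Of the sorting genes, 3 were matched under older symbols (*FAM125A*, *FAM125B* and *VPS24*). Genes named were the 10 genes, *APC*, *AXIN2*, rows sharing a locus with them, *GGA3*, listed sorting genes past 1.5-fold, the 3 rows nearest to *TOM1L2*, and markers of epithelial and other cell types. Any other sorting gene was chosen for naming once its values were known. The genes and lists were chosen with earlier results of these data known. Python 3.11.15, numpy 2.4.6, pandas 2.3.3, Biopython 1.88 and matplotlib 3.10.9 were used.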

Additional observations from a re-analysis of the deposited data

How the results depend on the processing

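Of the 10 genes, none changed the sign of its log2 ratio with 1 FPKM added, with the median ratio of all rows (-0.05) subtracted or with the libraries scaled to the 75th percentile. Adding 1 FPKM to both values cannot change a sign. The other settings could change only a ratio between -0.05 and 0, and no gene lay there. The unchanged signs are therefore no check of these differences. *TOM1L2* ranged from -0.94 to -0.70 and the other 9 genes from -0.30 to 0.32. With the median subtracted, the counting intervals of 5 genes covered 0 (*TOM1*, *TOLLIP*, *STAM2*, *TSG101* and *GGA1*), against 2 as deposited. *TOM1L2* was 1.92-fold lower at a mean of 3.18 FPKM. A 2-fold threshold or a mean of at least 5 FPKM therefore leaves it out by definition. The number of the 10 genes that were lower went from 1 to 0 in both, which does not measure the difference again. Shares of all rows under these settings were not computed. Among the other sorting genes, 5 were lower at a threshold of 0.32 in place of 0.58 on the log2 scale. These were *NEDD4*, *VPS37D*, *VTA1*, *SORT1* and *SORL1*, the last 4 named after their values were seen. The share of all rows lower at 0.32 was not computed, so this count has no background beside it. The lower quartile of all rows was -0.24. At 2-fold 0 of the other sorting genes were lower and 0 higher, and with 1 FPKM added 0 were lower. These counts have no background beside them either. The log2 ratio of the ESCRT-0 sum was -0.072 with the median subtracted, against -0.13. No paired analysis was possible because each condition had 1 library. The differences here rest on 1 library per condition and on the untransfected control alone, and low levels such as that of *TOM1L2* rest on few reads.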
